A study of Mus musculus with 24 samples.

Results

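Succinylacetone was present or absent while mouse embryonic stem cells left the naive state, and the 4 EpiLC+SA libraries were compared with the 4 EpiLC libraries over every gene of the deposited count table. These 8 libraries belong to a series of 24 libraries in 6 groups, and the comparison was chosen by its treatment labels and not by any measured value. The cells were ES-E14TG2a mESCs, 1 established line. For the transition they were kept for 48 h on fibronectin (15 µg/ml) in N2B27 medium with bFGF at 12 ng/ml and activin at 20 ng/ml, which gives epiblast-like cells (EpiLC); EpiLC+SA cells had 0.5 mM succinylacetone (SA) through the same 48 h. The other groups used here were naive cells held in LIF, 3 µM CHIR99021 and 1 µM PD0325901 (2iL), naive cells with 0.5 mM SA (2iL+SA), and EpiLC+SA cells that also had 10 µM hemin (EpiLC+SA+H). Nothing in the sources used here says whether the 4 libraries of a group came from separate cultures, so the p-values measure only the spread between these libraries.

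Heme is built in 8 enzymatic steps from glycine and succinyl-CoA, and SA blocks ALAD, the enzyme of the second step. Heme serves as the prosthetic group of cytochromes and catalases and as a signal, since it is sensed by the kinase EIF2AK1 (HRI) and by the repressor BACH1. Cells leaving the naive state switch off factors such as TFCP2L1 and TBX3 and switch on FGF5, OTX2 and the de novo DNA methyltransferases in response to FGF and activin. Activin and NODAL signal through SMAD2/3, and LEFTY1, SKIL and SMAD7 are known targets of that pathway.

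Each library was a set of 3' end reads counted per gene. Totals were 2883740 to 7844336 counts in EpiLC and 5125140 to 6324442 counts in EpiLC+SA. EpiLC replicate 3 was the shallowest and stood apart, with correlations of log2 CPM to its own group of 0.909 to 0.917, against 0.974 at the highest within EpiLC and 0.956 to 0.969 within EpiLC+SA. Mitochondrial genes took 5.78 to 7.90% of counts in EpiLC and 8.31 to 13.5% in EpiLC+SA, highest in EpiLC+SA replicate 3. Levels below are TMM-normalised CPM (counts scaled to a common library total), given for replicates 1 to 4 in order. Changes are log2 fold changes of EpiLC+SA over EpiLC ± SE, and called means an adjusted p under 0.05 in edgeR's quasi-likelihood test with Benjamini-Hochberg adjustment over all genes tested. The SE was derived from that test, as the absolute log2 change divided by the square root of its F statistic. In bulk RNA, fewer cells of a type and less RNA per cell cannot be told apart.

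Of 16067 genes tested, 1942 (12.1%) were higher and 2535 (15.8%) were lower in EpiLC+SA, so that 27.9% were called in either direction. Among the called genes 1161 rose and 1710 fell at least 2-fold, and 331 rose and 586 fell at least 4-fold. The 8 libraries separated without overlap for 3365 (75.2%) of the 4477 called genes. Calling on the same 8 libraries favours such separation, and the share over all genes tested was not counted. The median log2 change over all genes tested was -0.00 and the median absolute change was 0.60. Genes called higher took 13.2 to 15.6% of counts in EpiLC and 22.9 to 32.7% in EpiLC+SA, whereas genes called lower went from 15.9 to 20.0% down to 8.02 to 9.47%. Leaving out each library in turn, 2667 (59.6%) of the called genes were called every time. The lowest counts, 1394 higher and 1938 lower, came without EpiLC+SA replicate 4, and without EpiLC replicate 3 there were 1548 higher and 2483 lower. The median change also ran with transcript length, from 0.25 in the shortest to -0.23 in the longest of 10 equal classes of genes, and the part of length in the results was not tested. Genes are counted below by lists, to be read beside 12.1% higher, 15.8% lower and 27.9% in either direction over all genes tested. Where a list is given with 0 genes called by edgeR in a direction, DESeq2 also called 0 and 0 passed at an unadjusted p under 0.05, unless other counts stand beside it.

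Among genes of the Nodal pathway, Lefty1 was one of the largest falls, and Nodal fell as well. Lefty1, a secreted inhibitor of NODAL (chr1:180935022-180938400, GRCm38, + strand), stood at 273, 549, 108 and 56.7 CPM in EpiLC and at 8.25, 13.0, 0.844 and 0.344 CPM in EpiLC+SA. The groups did not overlap although the EpiLC libraries spanned a wide range, and the change was -5.46 ± 0.83 (adjusted p = 5.06e-05, edgeR's quasi-likelihood test). Nodal, the ligand itself (chr10:61417972-61425338, + strand), read 78.0, 86.8, 55.8 and 46.0 CPM in EpiLC against 23.95, 5.10, 5.28 and 6.20 CPM with SA. EpiLC+SA replicate 1 was the high one of the SA libraries, yet still below every EpiLC library, and Nodal fell by 2.69 ± 0.38.

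The other members of the pathway moved less evenly. Among 13 tested SMAD2/3 factors, targets and inhibitors, 0 were higher and 5 were lower, Lefty1, Smad7, Skil and Smad3 among them, with a median change of -0.91. In all, 38.46% of this list was called beside 27.9% over all genes. Smad7, an inhibitory SMAD, fell by 1.92 ± 0.42, and Smad3, the signal-carrying factor, by 0.92 ± 0.23. Lefty2, the close relative of Lefty1, was not called at -1.75 ± 0.88 (adjusted p = 0.14), with 314, 531, 173 and 52.7 CPM against 140, 88.7, 87.2 and 2.58 CPM. Among 9 ligands, receptors and processing enzymes, the activin receptor Acvr2b (-1.39) and the co-receptor Tdgf1 (-0.97) were lower, and Pcsk6, a proprotein convertase, was higher (0.87). The call of Tdgf1 was lost without EpiLC replicate 1 (adjusted p = 0.058), and that of Pcsk6 without any of 5 single libraries (adjusted p up to 0.14). The list of SMAD2/3 factors and targets had 8 lower without EpiLC+SA replicate 1. With hemin beside SA, the mean levels were 89.9 CPM for Lefty1 and 73.9 CPM for Nodal, values given without a test because that group shares its control with this comparison.

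**Figure D1:**
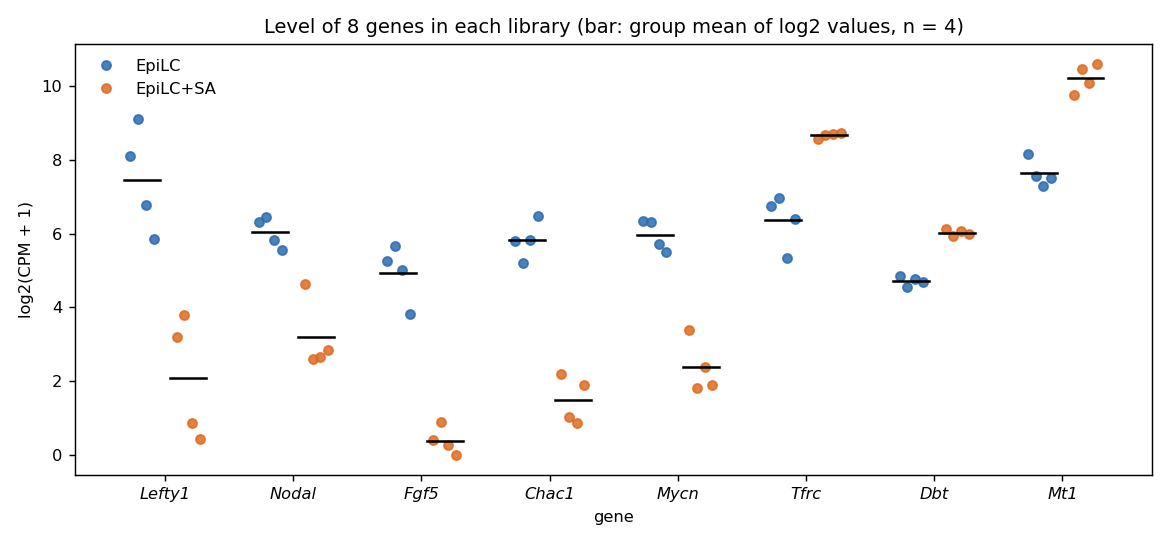
Level of 8 genes in the 4 EpiLC and 4 EpiLC+SA libraries, as log2(CPM + 1) on the vertical axis; each point is 1 library and each bar is the group mean. Lefty1, Nodal, Fgf5, Chac1 and Mycn sat lower in every EpiLC+SA library than in any EpiLC library, and Tfrc, Dbt and Mt1 sat higher in every one.

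Fgf5, the growth factor that marks the primed epiblast (chr5:98254184-98277030, + strand), fell further than any other gene of the lists. It read 37.1, 49.4, 31.4 and 13.0 CPM in EpiLC and 0.324, 0.851, 0.211 and 0 CPM in EpiLC+SA, and the fitted change was -6.54 ± 0.64 (adjusted p = 6.80e-08). In naive cells the mean was 0.151 CPM, a value given side by side with no test. The promoters of Fgf5, Nodal and Tfrc (250 bases before to 50 after the start site, RefSeq on GRCm38.p6) held none of 4 motifs searched on both strands: CAGAC of SMADs, AATNNACA of FOXH1, TGATGNAA of ATF4 and TGACNNNGC of NRF2, which stand in 49.6%, 12.2%, 3.97% and 12.4% of all 32851 promoters.

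Large falls came from genes of several kinds. By the naming rule for large changes (a mean of at least 20 CPM in the higher group and no overlap), the 12 genes at the low end included Fgf5, Lefty1, Fgf15, Vrtn, Chac1, Zfp608, Dos, Ina, Lef1, Wt1 and Ccnjl. Lef1, a DNA-binding partner of beta-catenin, read 220, 122, 113 and 143 CPM against 8.42, 19.14, 4.43 and 5.68 CPM (-3.997 ± 0.53). Ina, a neuronal intermediate filament gene, was the steadiest of these, with 103, 149, 141 and 93.9 CPM against 11, 8.51, 5.91 and 4.65 CPM (-4.01 ± 0.32, adjusted p = 3.72e-09). Zfp608 rested on a less even set, since replicate 2 was far above the others in both groups, at 68.9 CPM in EpiLC and 4.89 CPM in EpiLC+SA. Of 18 primed and formative genes 13 were lower and 0 were higher (median -1.64), and the 5 that were not called were Tead2, Etv4, Cdh2, Wnt8a and Dact1. Prox1, a homeobox factor, had 24, 13, 3 and 20 counts in EpiLC and 0 counts in all EpiLC+SA libraries, which makes it at least 19.9-fold lower against a floor of 3 counts over the group. In the other direction Foxc1, a forkhead factor, had 0 counts in all EpiLC libraries and 9, 1, 9 and 5 counts in EpiLC+SA, at least 8.05-fold higher.

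Core pluripotency genes fell in part. Of 16 genes 8 were lower and 0 were higher, and the lower ones included L1td1, Foxd3, Zscan10, Lin28a, Lin28b, Sall4 and Tdgf1. L1td1, an RNA-binding protein gene of pluripotent cells, read 1021, 956, 820 and 877 CPM in EpiLC and 213, 96.8, 74.7 and 73.5 CPM in EpiLC+SA, a change of -3.00 ± 0.28 (adjusted p = 2.58e-08). Its mean in naive cells was 570 CPM, so the level with SA lay below that of both states, and with hemin beside SA it was 772 CPM. Foxd3, a forkhead factor needed for the exit from the naive state, fell by 3.23 ± 0.56 from 61.8, 28.7, 23.6 and 34.7 CPM to 6.47, 3.62, 2.96 and 2.76 CPM. Sox2 read 486, 261, 1014 and 649 CPM against 537, 255, 391 and 245 CPM and was not called (-0.75 ± 0.29, adjusted p = 0.052), although DESeq2 called it lower (adjusted p = 0.039). The call of Lin28b was lost without EpiLC replicate 2 (adjusted p = 0.0968). Pou5f1 (-0.16 ± 0.70) was not called either, and 29.7% of the 50-base windows at its transcript end also stand in transcripts of other genes. Its counts were low, at 6.38 to 15.9 CPM, and the part of shared sequence in them was not tested.

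Among the naive genes, 8 of 20 were higher and 2 were lower (median 0.69), so that 50% were called beside 27.9% over all genes. Tbx3, a T-box factor of the naive network, read 16.0, 6.91, 37.6 and 29.7 CPM in EpiLC and 192, 105, 186 and 117 CPM in EpiLC+SA (2.76 ± 0.36). Tcl1, a co-activator of AKT, rose by 2.41 ± 0.41 and Nr0b1, an orphan nuclear receptor, by 2.00 ± 0.55. Klf4 read 11.3, 6.69, 132 and 17.2 CPM in EpiLC, with replicate 3 far above the rest, and 91.3, 18.3, 104 and 62.7 CPM in EpiLC+SA, and it was not called (0.79 ± 0.66, adjusted p = 0.40). Without that replicate the change in Klf4 was 2.496 and was called (adjusted p = 0.00197). Of 13 LIF and STAT3 genes 5 were higher and 0 were lower: Stat3 (1.26 ± 0.22), and the kinase genes Pim1 (1.22 ± 0.25), Pim3 (1.44 ± 0.41), Tyk2 (0.65) and Jak1 (0.48). DESeq2 called 4 higher and 1 lower in this list (1 was lower by edgeR at an unadjusted p under 0.05). By edgeR 38.46% of the list was called, beside 27.9% over all genes. The Jak1 call was lost with DESeq2 (adjusted p = 0.0537), its size factors, no filter, only the groups compared (adjusted p = 0.159) and without any of 6 single libraries (adjusted p up to 0.197), and the Tyk2 call without EpiLC replicate 3 (adjusted p = 0.0789). Stat3, the factor downstream of LIF, read 57.2, 33.9, 41.4 and 56.6 CPM against 119, 101, 134 and 99.5 CPM; LIF is not listed in the medium of either group.

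By the same rule, the largest rises besides Tbx3 were in Gm24916, Gm29216, Trim63, Gadd45b, 2410137M14Rik, Gm28661, Khdc3, Gm525, Fabp3, Mras and Lrrc31. Gadd45b, a stress-inducible gene linked to DNA demethylation, read 7.90, 3.89, 11.6 and 11.3 CPM against 61.0, 40.0, 98.8 and 121 CPM (3.22 ± 0.46). Fabp3, a fatty acid carrier, rose by 2.95 ± 0.37, and Trim63, a ubiquitin ligase known from muscle, by 3.30 ± 0.51. Gm24916 (chr14:31015148-31015226, - strand) lies wholly within sequence that also stands in a Gnl3 transcript, so its 4.203 ± 0.48 cannot be assigned to either gene.

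Iron handling genes included 4 that rose and 1 that fell among 16 tested, so that 31.25% were called beside 27.9% over all genes. Tfrc encodes the transferrin receptor, which brings iron into the cell (chr16:32608920-32632794, + strand). Its mRNA is known to be stabilised when iron regulatory proteins bind hairpins in its 3' UTR, while the same proteins block translation where a hairpin lies in the 5' UTR, as in the iron exporter gene Slc40a1. A search of GENCODE transcripts on GRCm38 for the hairpin (a bulged C, a stem of 5 pairs with at most 1 G-U pair, and a CAGTGN loop whose last base is not G) found a match in 0.503% of 21877 protein-coding genes, with 4 in the 3' UTR of Tfrc and 1 in the 5' UTR of Slc40a1. They are shown because both genes were called, in opposite directions, with the bulged C and the loop in capitals. 
Tfrc, chr16:32631219-32631247: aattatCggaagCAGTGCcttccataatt
Tfrc, chr16:32631598-32631626: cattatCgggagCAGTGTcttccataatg
Tfrc, chr16:32631663-32631691: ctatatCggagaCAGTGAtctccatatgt
Tfrc, chr16:32631710-32631738: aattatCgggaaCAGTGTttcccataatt
Slc40a1, chr1:45925465-45925493 (- strand): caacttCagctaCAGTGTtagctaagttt
A match is a description of the letters and no measure of binding.

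Tfrc read 107, 124, 39.1 and 83.2 CPM in EpiLC and 372, 402, 415 and 420 CPM in EpiLC+SA, a rise of 2.18 ± 0.33 (adjusted p = 2.63e-05). The SA libraries lay close together and near the naive mean of 467 CPM, and with hemin beside SA the mean was 90.5 CPM. Slc40a1 read 14.2, 16.0, 10.5 and 6.01 CPM against 1.13, 4.25, 2.74 and 1.03 CPM, a fall of 2.37 ± 0.58. Trf, which encodes transferrin, rose by 2.39 ± 0.44 from a level of at most 4.52 CPM in EpiLC to 11.5 to 22.98 CPM in EpiLC+SA. Aco1, which encodes iron regulatory protein 1, rose by 1.09 ± 0.32. The ferritin heavy chain gene Fth1 was not called (0.71 ± 0.33, adjusted p = 0.12); EpiLC replicate 3 was its low library, at 162 CPM against 600 to 676 CPM in the other EpiLC libraries. Ftl1, the light chain, was called higher (1.83 ± 0.48), but 80.9% of the windows at its transcript end are shared with pseudogenes and its counts of 2.81 to 25.5 CPM are uncertain.

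Of 8 heme synthesis enzymes tested, edgeR called Cpox alone and DESeq2 called 2. It read 56.9, 41.0, 13.6 and 52.5 CPM in EpiLC and 96.4, 101, 71.6 and 94.0 CPM in EpiLC+SA (1.13 ± 0.38), and the call was lost without any of 5 single libraries, with an adjusted p up to 0.087. Alad, whose product SA inhibits, read 21.6, 35.6, 25.2 and 21.2 CPM against 23.6, 23.2, 20.1 and 24.1 CPM, a change of -0.18 ± 0.22 (adjusted p = 0.56). Alas1, the first and rate-limiting enzyme, which heme is known to repress, was not called at 0.74 ± 0.33 (adjusted p = 0.094), but was without EpiLC replicate 1 (1.11, adjusted p = 0.0181). Of 16 heme breakdown, carrier and binding genes 5 were higher and 0 lower, so that 31.25% were called beside 27.9% over all genes. Slc48a1, a carrier that moves heme out of lysosomes, rose from 28.1, 25.3, 17.8 and 25.7 CPM to 53.7, 62.1, 66.3 and 56.1 CPM (1.29 ± 0.27). Slc25a38, a mitochondrial glycine carrier for heme synthesis (1.17 ± 0.34), Tmem14c, a porphyrin carrier (1.19 ± 0.25), and the heme-binding Hebp1 (1.63 ± 0.31) rose as well, as did Pgrmc1 (0.75), whose call was lost without any of 4 single libraries (adjusted p up to 0.154). Hmox1, the heme oxygenase, was not called (-0.72 ± 0.53), with 15.3, 34.3, 40.7 and 12.9 CPM against 18.5, 14.7, 13.1 and 15.0 CPM.

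Genes under NRF2 and BACH1 moved in both directions. Of 17 genes 2 were higher and 6 were lower, so that 47.06% were called beside 27.9% over all genes. Bach1, the heme-sensing repressor, read 31.6, 49.9, 84.4 and 35.3 CPM against 19.6, 14.5, 15.0 and 8.09 CPM (-1.80 ± 0.34), and Keap1, which holds NRF2 in check, fell from 35.96 to 40.3 CPM to 8.23 to 18.6 CPM (-1.61 ± 0.20). Nqo1, a quinone reductase, rose by 2.10 ± 0.44 and Me1, malic enzyme, by 1.38 ± 0.25. Srxn1, sulfiredoxin, fell from 56.8, 45.6, 31.7 and 41.1 CPM to 15.5, 11.3, 8.44 and 10.7 CPM (-1.93 ± 0.20), and Txnrd1 (-1.36), Gclm (-0.77) and the cystine carrier gene Slc7a11 (-3.44 ± 1.03, mean 1.14 CPM in EpiLC) were lower. Of these, Gclm lost its call without any of 3 single libraries (adjusted p up to 0.0915) and Slc7a11 without EpiLC+SA replicate 4 (adjusted p = 0.0513). Of 32 tested glutathione and drug metabolism genes 10 were higher and 0 were lower (median 0.69), so that 31.25% were called beside 27.9% over all genes. The higher ones included Gstm1 (1.78), Gpx1 (1.05), the cytochrome b5 gene Cyb5a (1.18) and Gsta3 (3.14, from a mean of 0.288 CPM). Gene families such as Gstm and Gsta share sequence, and reads that mapped to several places were discarded.

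The 2 metallothionein genes named by the rule rose together. Mt1, a metal-binding protein gene, read 284, 187, 155 and 180 CPM in EpiLC and 862, 1401, 1070 and 1550 CPM in EpiLC+SA (2.60 ± 0.26, adjusted p = 9.88e-08). Mt2 read 479, 446, 193 and 262 CPM against 1558, 1885, 1708 and 3034 CPM (2.57 ± 0.36), with 44.1% of the windows at its end shared with Gm45774. In naive cells the means were 1177 CPM for Mt1 and 1671 CPM for Mt2, so the levels with SA were near those of 2iL.

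The ATF4 response showed 13 of 24 members lower and 0 higher, with a median change of -1.35 and DESeq2 calling 14 lower. ATF4 is the factor that translation of its mRNA raises when EIF2A is phosphorylated by kinases such as EIF2AK1, and it drives genes of amino acid supply and stress. Chac1, a glutathione-degrading enzyme gene (chr2:119351229-119354381, + strand), read 54.5, 36.1, 55.4 and 87.5 CPM in EpiLC and 3.56, 1.06, 0.844 and 2.76 CPM in EpiLC+SA (-4.77 ± 0.60, adjusted p = 3.87e-06). Stc2, stanniocalcin 2, fell from 12.3, 17.9, 12.8 and 17.4 CPM to 1.78, 0.213, 0.633 and 1.38 CPM (-3.83 ± 0.53). Sesn2, a leucine sensor of the mTORC1 pathway, read 75.8, 127, 150 and 87.5 CPM against 33.3, 21.1, 21.7 and 14.3 CPM (-2.27 ± 0.25). None of these 3 genes overlapped between groups. Trib3, a pseudokinase that restrains ATF4, fell by 2.22 ± 0.35, Ddit4, an mTORC1 inhibitor, by 1.78 ± 0.37 and Atf3 by 2.43 ± 0.63. Atf4 itself read 387, 438, 1105 and 484 CPM against 232, 177, 185 and 239 CPM (-1.53 ± 0.35), with EpiLC replicate 3 far above the rest and the groups still apart. The other members called lower were Vldlr (-2.69), Atf5 (-2.40), Pck2 (-1.94), Mthfd2 (-1.38), Cebpb (-1.32) and Shmt2 (-0.87). Leaving out single libraries gave 12 to 15 lower members, and the Cebpb call was lost without any of 4 of them (adjusted p up to 0.0856).

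The members of the list that were not called included genes of amino acid synthesis. Asns, asparagine synthetase, read 198, 206, 228 and 329 CPM in EpiLC and 246, 200, 217 and 316 CPM in EpiLC+SA (0.03 ± 0.26, adjusted p = 0.96). Ddit3 (0.31), Ppp1r15a (-0.04), Nupr1 (-0.26), Psat1 (-0.64) and Phgdh (0.47) were not called, nor was any of the 4 EIF2A kinases, with Eif2ak1 at -0.07 ± 0.15. The ATF4-type motif TGATGNAA, searched on both strands, stood in the promoter window of 7 of the 23 members with a RefSeq promoter, against 4.51% of all 27025 genes with one. They were Atf3, Chac1, Trib3, Vldlr and Pck2, which were lower, and Asns and Nupr1, which were not called. Of these, 4 are shown, 50 bases on the gene's strand of GRCm38.p6 with the motif or its reverse complement in capitals, to set 3 genes that fell beside Asns.
Chac1, chr2:119351028-119351077: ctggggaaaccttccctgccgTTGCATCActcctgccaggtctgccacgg
Trib3, chr2:152344018-152344067: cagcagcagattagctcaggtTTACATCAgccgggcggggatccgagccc
Atf3, chr1:191183415-191183464: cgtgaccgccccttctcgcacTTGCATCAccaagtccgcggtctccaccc
Asns, chr6:7693204-7693253: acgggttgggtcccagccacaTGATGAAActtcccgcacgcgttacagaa
The motif thus stood in genes of both kinds.

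**Figure D2:**
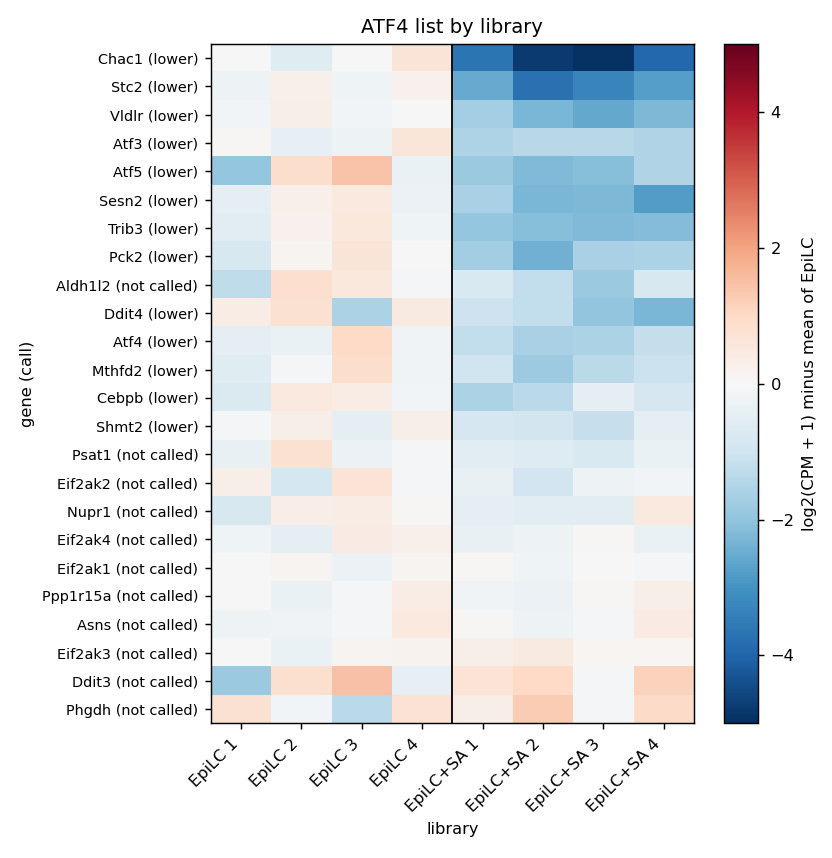
Each row is 1 of the 24 genes of the ATF4 list and each column 1 library, and the colour gives log2(CPM + 1) minus the mean of the 4 EpiLC libraries; genes are ordered by their log2 change. Chac1, Stc2 and Vldlr at the top were low in all 4 EpiLC+SA libraries, whereas Asns and the EIF2A kinase genes near the bottom differed little between groups.

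Genes for amino acid supply were called in both directions, and their counts stand beside 12.1% higher and 15.8% lower over all genes. Of 18 amino acid transporter genes 6 were lower and 3 were higher. Slc1a4, a carrier of alanine, serine and cysteine, fell from a mean of 61.4 CPM to 9.33 CPM (-2.69 ± 0.35), and Slc38a2, a glutamine carrier, from 734, 515, 235 and 575 CPM to 173, 261, 193 and 186 CPM (-1.34 ± 0.27), where EpiLC replicate 3 overlapped the SA libraries. The glycine carrier gene Slc6a9 was lower (-2.55), but all windows at its end are shared with Ccdc24. Of 20 cytosolic aminoacyl-tRNA synthetase genes 5 (Cars, Sars, Wars, Lars and Nars) were lower and Qars was higher, and of 17 mitochondrial ones 5 were lower, with Wars2 at -2.10 ± 0.31. The call of Qars was lost without any of several single libraries (adjusted p up to 0.121). Among 21 serine, glycine and one-carbon enzyme genes 5 were lower, Mthfd2, Mthfd1l and Shmt2 among them, and 3 were higher: Amt (2.00 ± 0.38) of the glycine cleavage system, Aldh1l1 (1.44) and the threonine dehydrogenase gene Tdh (1.23 ± 0.30).

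Dbt encodes the transacylase core of the branched-chain ketoacid dehydrogenase (chr3:116513070-116549981, + strand). It read 27.6, 22.5, 26.3 and 24.9 CPM in EpiLC and 68.1, 60.0, 65.7 and 61.8 CPM in EpiLC+SA, a rise of 1.34 ± 0.16 (adjusted p = 9.58e-07) with tight groups. Of 25 genes of branched-chain amino acid breakdown 14 were higher and 1 was lower. The single lower gene was Bckdk, the kinase that switches the complex off (-0.93 ± 0.21, mean 46.8 to 24.5 CPM), whereas Ppm1k, the phosphatase that switches it on, was higher (0.84 ± 0.30, mean 6.11 to 11.1 CPM), a call lost without any of 7 single libraries (adjusted p up to 0.101). Leaving out each library in turn gave 11 to 13 higher members and 1 lower. Further down the pathway Acadsb (1.51 ± 0.22), Hibadh (1.65 ± 0.47), Pccb (1.45) and Mut (0.96) rose. Bckdha was called (0.90 ± 0.22), though 97.8% of the windows at its end are shared with B3gnt8.

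Nuclear genes of the respiratory chain were called higher more often than lower. The counts were 11 higher and 0 lower of 37 complex I subunits, 6 and 0 of 14 in complexes II and III, 7 and 1 of 16 in complex IV and 5 and 0 of 19 in the ATP synthase, beside 12.1% higher and 15.8% lower over all genes. These counts moved with single libraries: without EpiLC replicate 3 there were 6 higher in complex I, 3 in complexes II and III, 5 in complex IV and 3 in the ATP synthase. Without EpiLC+SA replicate 2 or replicate 4 there were 4 higher in complex IV and 2 in the ATP synthase, which had 8 without EpiLC+SA replicate 3. Of the 1300 genes in the shortest class of transcripts, 239 were higher and 144 lower. The part of length in the respiratory chain counts was not tested. Complex IV carries heme a, and its assembly factors moved both ways, with 7 of 20 higher and 3 lower. Coa7, one such factor, read 66.3, 70.4, 101 and 63.2 CPM in EpiLC and 20.2, 9.36, 6.12 and 11.9 CPM in EpiLC+SA (-2.64 ± 0.27, adjusted p = 1.09e-07). Cox10, which farnesylates heme on the way to heme a, fell from 84.3, 135, 141 and 81.2 CPM to 46.4, 31.3, 56.2 and 39.1 CPM (-1.35 ± 0.27), while Cox15, which follows it, was not called (0.60). Taco1, a translational activator of the mitochondrial COX1 mRNA, was the third lower factor (-1.85 ± 0.44). Cox20, a chaperone of COX2, rose from 18.9, 14.03, 10.8 and 16.4 CPM to 45.6, 50.0, 57.0 and 43.7 CPM (1.69 ± 0.21), with 68.2% of the windows at its end shared, mainly with Hnrnpu, and Pet100 (1.74 ± 0.26) shares all its windows with Pcp2. Among TCA cycle and succinate genes 9 of 31 were higher, and the single lower one was Slc25a10, the dicarboxylate carrier that exports succinate from mitochondria (-1.62 ± 0.45, mean 4.0 to 1.24 CPM). The count of higher TCA genes was 5 without EpiLC replicate 2 or EpiLC+SA replicate 1, 4 without EpiLC+SA replicate 2 and 3 without EpiLC+SA replicate 4.

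Genes encoded by mitochondrial DNA, which are made from common polycistronic transcripts, were called in opposite directions, 6 of 13 higher and 3 lower. mt-Co1 read 3254, 1941, 1220 and 1879 CPM in EpiLC and 7365, 9707, 17890 and 14390 CPM in EpiLC+SA, a rise of 2.57 ± 0.31 (adjusted p = 1.23e-06). mt-Nd2 read 9625, 8653, 4830 and 5801 CPM against 4919, 2107, 1854 and 2229 CPM (-1.38 ± 0.30), with EpiLC+SA replicate 1 overlapping EpiLC replicate 3, and mt-Nd1 fell by 0.76 ± 0.19. mt-Nd3 fell by 1.76 ± 0.34, mt-Nd5 rose by 1.32 ± 0.30 and mt-Cytb was not called (-0.22 ± 0.39). The 2 ribosomal RNAs mt-Rnr1 (0.81) and mt-Rnr2 (0.94) were higher, most of all in EpiLC+SA replicate 3, at 45460 and 61840 CPM, and the call of mt-Rnr1 was lost without that library (adjusted p = 0.114) or EpiLC replicate 4 (adjusted p = 0.0559). The mt-Co2 call was lost without any of 3 single libraries (adjusted p up to 0.092).

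Several of these mitochondrial genes have near-identical nuclear copies. Of the 50-base windows in the last 500 bases, 95.3% in mt-Co1, 100% in mt-Co2 and 98.0% in mt-Nd3 also stand in a transcript of another gene, chiefly Gm29216 (chr1:24615706-24616197, - strand), Gm28661 (chr1:24614885-24615565, - strand) and Gm28438, against 17.7% in mt-Nd2 and 12.6% in mt-Nd5. The nuclear copies Gm29216 (3.71 ± 0.67) and Gm28661 (3.03 ± 0.61) were called higher with mt-Co1 and mt-Co2. Since reads with several placements were discarded, the counts of mt-Co1 come from the reads that could be placed at a single locus, and how reads were divided between the copies was not tested.

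**Figure D3:**
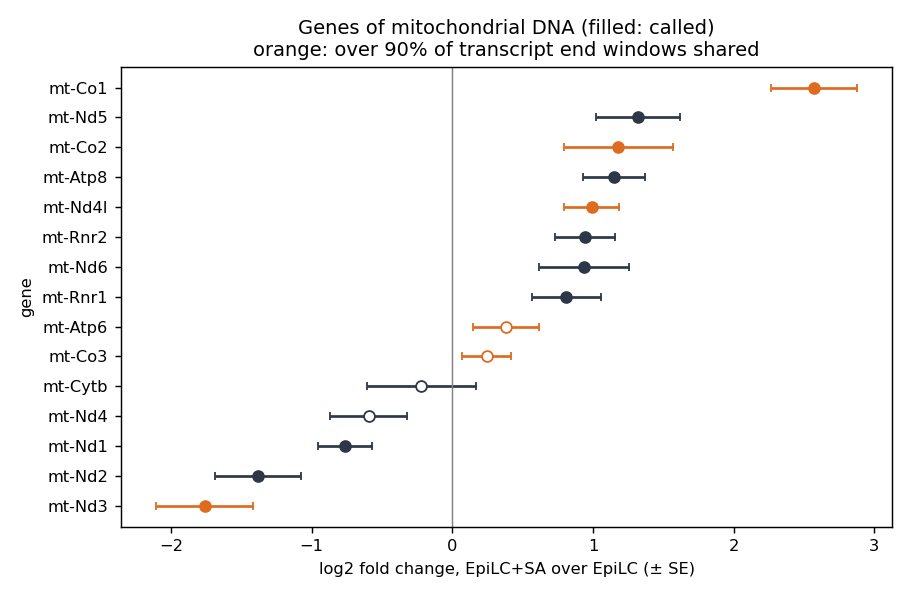
Log2 change of EpiLC+SA over EpiLC for the 13 protein genes and 2 ribosomal RNAs of mitochondrial DNA, with bars of ± SE derived from the F statistic of edgeR's test. Filled points were called, open points were not, and the orange points have over 90% of their end windows shared with other genes. mt-Co1 stands highest at 2.57 and mt-Nd3 lowest at -1.76.

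Sterol, sugar and oxygen genes held further calls. Of 24 cholesterol synthesis genes 11 were higher and 1 was lower (median 0.61). Stard4, a cholesterol carrier, rose by 1.29 ± 0.22, Lss, lanosterol synthase, from 74.2, 48.6, 54.6 and 77.0 CPM to 234, 113, 104 and 136 CPM (1.20 ± 0.28), and Insig1 by 1.01 ± 0.24, whereas Srebf2 (-0.22) was not called. EpiLC+SA replicate 1 was the high library for Lss. In all, 6 cholesterol genes were higher without EpiLC+SA replicate 1 and 7 without EpiLC replicate 2 or 3. Of 22 glycolysis enzyme and glucose carrier genes 7 were higher and 1 was lower, so that 36.36% were called beside 27.9% over all genes. There were 3 higher without EpiLC replicate 2 or EpiLC+SA replicate 2 and 4 without EpiLC+SA replicate 4. Named members were Slc2a3 (1.71), Eno2 (1.75), Eno3 (1.37) and Ldhb (1.28), which were higher, Slc16a3 (-1.45), which was lower, and Ldha (0.11), Pkm (-0.26) and Eno1 (0.08), which were not called. The calls of Eno3 (adjusted p up to 0.122) and Slc16a3 (adjusted p up to 0.0795) were lost without any of several single libraries. Of 22 hypoxia response genes 5 were higher and 5 were lower (median 0.13), so that 45.45% were called beside 27.9% over all genes. The highest change was that of Car9 (1.72). Only 1 was higher without EpiLC replicate 3 or EpiLC+SA replicate 2. All 3 prolyl hydroxylases that mark HIF for degradation were lower, Egln1 (-1.21), Egln2 (-0.75) and Egln3, which fell from 40.2, 20.1, 18.97 and 38.8 CPM to 7.44, 7.02, 4.64 and 2.41 CPM (-2.47 ± 0.38). Arnt (1.29 ± 0.25) and Epas1 (1.05 ± 0.34), which form a HIF dimer, were higher, and the HIF target Vegfa (-0.24) was not called. Egln1 lost its call without EpiLC replicate 4 or EpiLC+SA replicate 2 (adjusted p up to 0.0549), and Epas1 without EpiLC replicate 3 or EpiLC+SA replicate 2 (adjusted p up to 0.0533).

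All 3 MYC family genes were lower. Mycn, a member known from pluripotent cells, read 80.6, 78.6, 51.1 and 44.6 CPM in EpiLC and 9.39, 2.55, 4.22 and 2.76 CPM in EpiLC+SA (-3.72 ± 0.40, adjusted p = 3.70e-07), while Myc (-2.85 ± 0.82) went from a mean of 3.04 to 0.427 CPM and Mycl (-1.72 ± 0.54) from 7.38 to 2.28 CPM. Of 36 MYC family and cell cycle genes 6 were lower and 3 were higher, so that 25% were called beside 27.9% over all genes. Plk1 (-1.38 ± 0.21), Aurka (-1.18) and Cdc20 (-0.57) were lower, Ccnd3 (1.41), Mcm4 (0.95) and Cdkn2a (1.36) were higher, and Mki67 (-0.25) and Pcna (-0.05) were not called. Calls lost without single libraries were those of Mcm4 (adjusted p up to 0.142), Cdc20 (adjusted p up to 0.102) and Mycl (adjusted p up to 0.0653). Ribosomal protein genes did not fall with them: 20 of 88 were higher and 0 were lower (median 0.56), so that 22.7% were called beside 27.9% over all genes. Only 7 were higher without EpiLC replicate 3 or EpiLC+SA replicate 4, and 8 without EpiLC+SA replicate 2. Most of these genes have pseudogenes, and 90.7% of the end windows of Rps6 are shared. Of the 1300 genes in the shortest class of transcripts, 239 were higher and 144 lower. Among all genes at 100 CPM or more, 36.6% were called. The part of length and level in the ribosomal protein counts was not tested.

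In absolute terms the genes that lost most CPM included several RNA-binding proteins. Besides L1td1, Dnmt3a and the mitochondrial genes they included Wdr43, Anp32b, Ankrd11, Sfpq and Igf2bp1. Sfpq, a nuclear RNA-binding protein of paraspeckles, read 800, 783, 659 and 663 CPM in EpiLC and 162, 222, 192 and 132 CPM in EpiLC+SA (-2.04 ± 0.20, adjusted p = 5.81e-08). Pcf11, a transcription termination factor, fell from 123, 122, 91.0 and 97.3 CPM to 19.3, 21.7, 17.9 and 11.7 CPM (-2.62 ± 0.19, adjusted p = 1.54e-09), with 42.6% of its end windows shared with 6430511E19Rik. Wdr43 was at 2692 CPM in EpiLC replicate 3 and 913 to 1074 CPM in the others, and its call (-0.98) was lost without that library (-0.49, adjusted p = 0.271) or any of 3 EpiLC+SA libraries. Dnmt3a, a de novo DNA methyltransferase, fell from 1750, 932, 1108 and 1303 CPM to 532, 773, 573 and 622 CPM (-1.03 ± 0.24). On the gaining side stood the nuclear long RNA Malat1 (0.99 ± 0.26), at 3479, 2668, 2929 and 3372 CPM against 4984, 5342, 8683 and 5726 CPM, and Pabpc1 (0.67), whose call was lost without any of 4 single libraries (adjusted p up to 0.078).

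Of 25 imprinted genes 24% were called, beside 27.9% over all genes, with 1 higher and 5 lower, or 3 lower without EpiLC replicate 2, EpiLC+SA replicate 3 or EpiLC+SA replicate 4. The lower ones held 2 long non-coding RNAs. Mirg, from the Dlk1-Dio3 region (chr12:109729764-109749460, + strand), read 97.4, 105, 153 and 96.1 CPM against 12.6, 13.2, 11.4 and 8.78 CPM (-3.29 ± 0.26, adjusted p = 3.72e-09), while its neighbours Meg3 (-0.57) and Rian (-0.01) were not called. Kcnq1ot1 fell from a mean of 160 CPM to 33.8 CPM (-2.25 ± 0.28).

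Markers of other cell types were counted in the same way, beside 12.1% higher and 15.8% lower over all genes. Summed over each list, the level ran from 69.8 to 98.2 CPM in EpiLC and 75.9 to 99.2 CPM in EpiLC+SA for neuroectoderm, from 5.81 to 27.2 CPM and 8.72 to 24.6 CPM for mesendoderm, and from 71.5 to 92.7 CPM and 125 to 211 CPM for fibroblast markers. Endoderm markers summed to 281 to 448 CPM in EpiLC and 494 to 838 CPM in EpiLC+SA, and primordial germ cell genes to 248 to 440 CPM and 406 to 566 CPM. Of 9 tested neuroectoderm markers 1 was lower and of 9 mesendoderm markers 1 was lower, with 0 higher in either list by edgeR. In each list 1 was higher at an unadjusted p under 0.05, and DESeq2 called 1 higher in each. DESeq2 called 3 neuroectoderm markers lower, and 1 to 3 were lower by edgeR without 1 library or another. For mesendoderm, leaving out a library gave 1 lower without EpiLC replicate 3 or EpiLC+SA replicate 3 and 0 in the other fits. Of 11 primordial germ cell genes 5 were higher and 0 lower (1 at an unadjusted p under 0.05), among them Nanos3 (2.91 ± 0.52, at most 1.73 CPM in EpiLC and 4.68 to 8.66 CPM with SA), Prdm14 (2.61) and Tfap2c (1.33), while Prdm1 was not called (-0.88 ± 0.38) but was lower without EpiLC+SA replicate 1 (-1.29, adjusted p = 0.0208). Without EpiLC replicate 2 or EpiLC+SA replicate 1 the count was 3; Prdm14 lost its call without any of 4 single libraries (adjusted p up to 0.108) and Tfap2c without EpiLC replicate 3 (adjusted p = 0.0512). Of 11 endoderm markers 4 were higher and 1 was lower, and the lowest change was that of Dab2 (-1.43). Without 1 library or another, 0 to 2 endoderm markers were lower. Sparc was higher, at 113, 136, 336 and 147 CPM against 523, 323, 701 and 583 CPM (1.55 ± 0.39). Gata4 (1.82, mean 0.610 to 2.37 CPM) and Apoa1 (2.35, mean 0.300 to 1.73 CPM) stayed low, and Gata6 (1.08) and Sox17 (-0.50) were not called. Neither Gata4 (adjusted p up to 0.105) nor Apoa1 (adjusted p up to 0.0915) kept its call in all fits without 1 library. Of 7 fibroblast markers 3 were higher, Vim, Thy1 and Pdgfrb, and 0 were lower (1 at an unadjusted p under 0.05). The Pdgfrb call was lost without EpiLC+SA replicate 1 (adjusted p = 0.0972). Dcn had the lowest change of the fibroblast list (-3.42), and 1 member was lower without EpiLC replicate 3, EpiLC replicate 4 or EpiLC+SA replicate 2. Of 11 trophectoderm markers 2 were higher and 1 was lower (median 0.80). Leaving out a library gave 1 to 2 higher and 0 to 1 lower of them. Summed, trophectoderm markers ran from 49.2 to 77.9 CPM in EpiLC and 62.8 to 87.2 CPM in EpiLC+SA. The part of such cells in the results above was not tested.

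**Figure D4:**
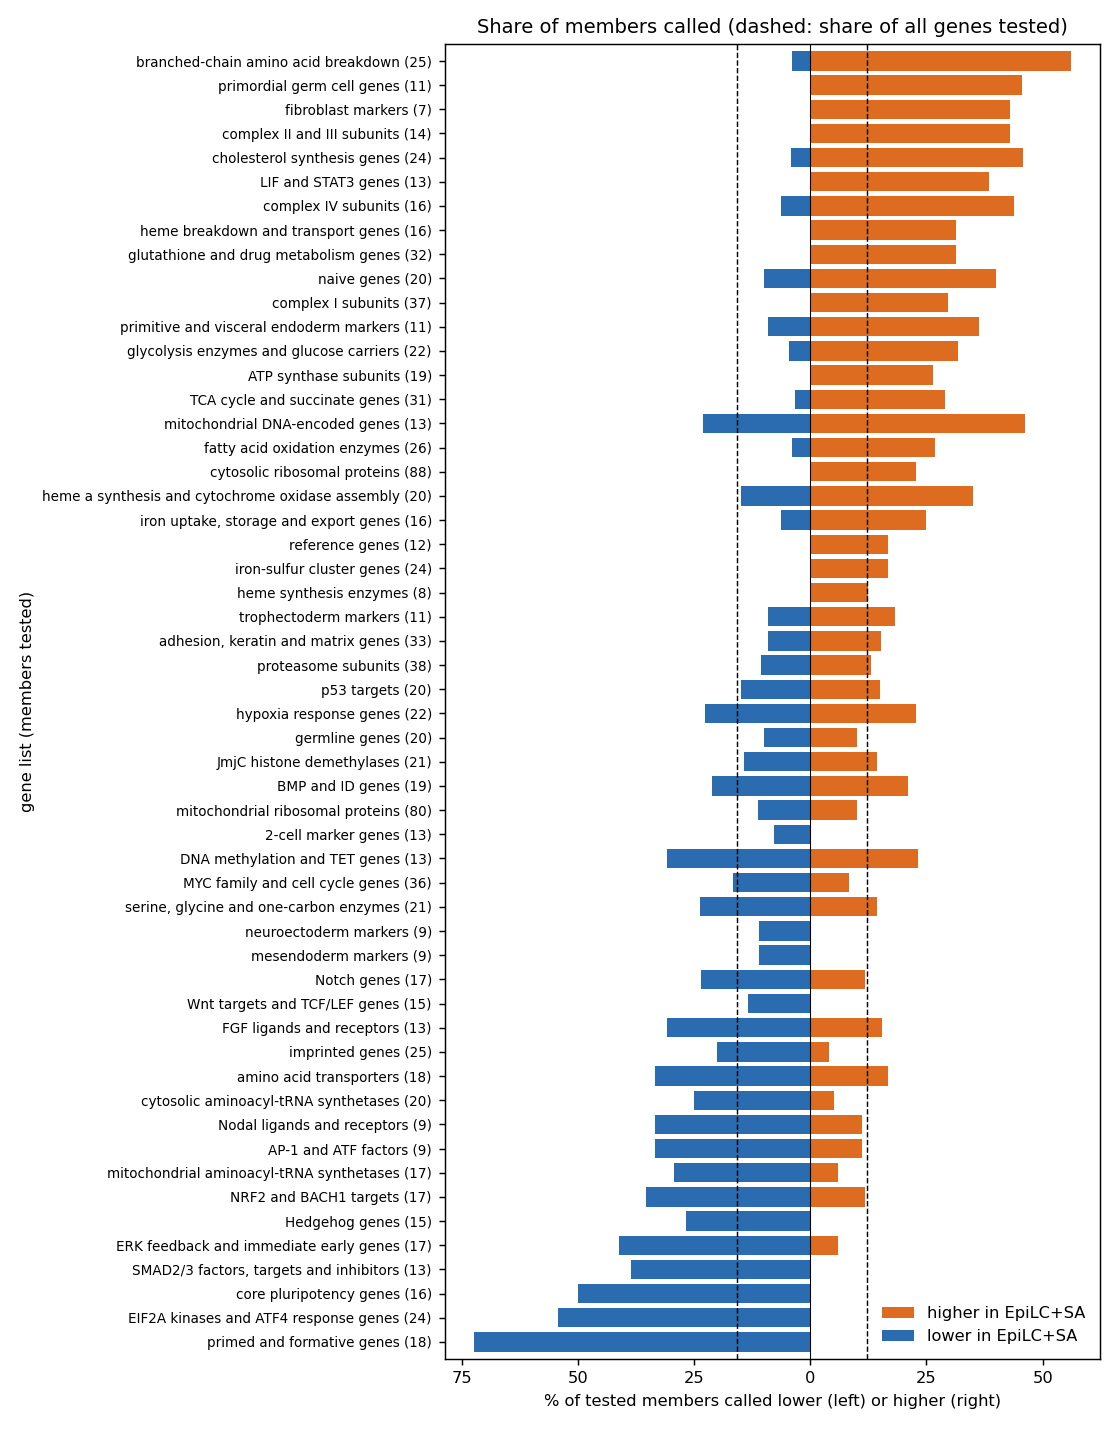
For each of the 54 gene lists, the share of tested members called higher (right, orange) and lower (left, blue) in EpiLC+SA, in percent of members tested, with the number tested in brackets; dashed lines give 12.1% and 15.8%, the shares over all genes tested. Primed genes and the ATF4 list reach farthest to the left, and branched-chain amino acid breakdown farthest to the right.

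The effect of SA during the transition was set against its effect in naive cells, as the difference of the 2 changes in 1 model. This difference was called for 2304 genes (14.3% of those tested), 847 higher and 1457 lower in the transition. Of the 4477 genes called above, 1997 (44.6%) were among them with the same sign. The difference contains the change that selected those genes, from the same libraries. Part of this overlap and of the shared sign is therefore built in. Of the markers, Lefty1 (-4.64), Nodal (-2.80), Tfrc (1.83) and Dbt (1.14) differed, whereas for Fgf5, nearly absent from naive cells, the difference of -5.05 was not called by edgeR (adjusted p = 0.27), while DESeq2 called it (adjusted p = 0.00526). The 6 genes with the smallest adjusted p on the lower side were Mirg, Pcf11, Hs6st1, Zfhx3, Klf13 and B230354K17Rik. Klf13, a Kruppel-like factor, had naive means of 150 CPM without and 141 CPM with SA, and in transition it read 152, 105, 154 and 166 CPM against 32.9, 28.5, 25.3 and 19.8 CPM, a difference of -2.34. Mirg moved the other way in naive cells, from a mean of 102 CPM to 193 CPM, and its difference was -4.21. On the higher side were Cox20, Mt1, Car13, Ass1, Pcolce and Gm13580. Ass1, argininosuccinate synthase, read 9.51, 10.6, 9.29 and 8.35 CPM against 39.7, 39.8, 53.2 and 42.2 CPM in transition and had naive means of 59.6 and 69.9 CPM, a difference of 1.99. Car13, a carbonic anhydrase, differed by 2.43 and Mt1 by 3.05.

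For other genes no difference between the states was called. Malat1 had a difference of 0.09 (adjusted p = 0.90), with naive means of 3009 CPM without and 5612 CPM with SA. Lss (0.32), Dhcr7 (0.27) and Sparc (0.16) had differences that were not called, and so did Shmt2 (-0.18). Of the 24 ATF4 genes 9 had a lower difference and 0 a higher one. Atf3 was among them at -4.09, with naive means of 3.19 CPM without and 9.96 CPM with SA, opposite to its fall in transition. A difference that was not called does not show that the effects were equal.

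**Figure D5:**
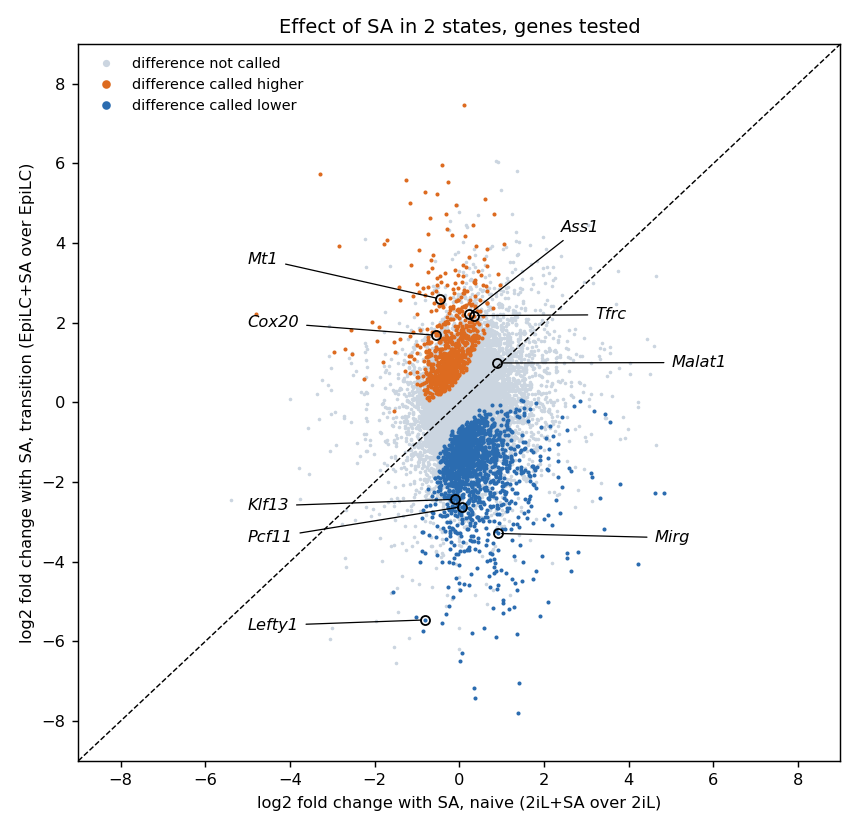
Log2 change with SA in naive cells (horizontal) against that in transition (vertical) for the 16067 genes tested, with the line of equality dashed; blue and orange points are genes whose difference was called lower or higher. Lefty1, Mirg, Klf13 and Pcf11 lie well below the line, Mt1, Ass1, Cox20 and Tfrc above it, and Malat1 on it.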

How the data were processed

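RNA of 24 libraries in 6 groups of 4 was sequenced as 50-base single-end reads from transcript 3' ends (Lexogen QuantSeq). Per the submitters' processing notes and the study's methods, reads were checked with FastQC 0.11.7, trimmed with fastq-mcf, aligned to mm10 with HISAT2 with multi-mapped reads discarded, and handled with SAMtools 1.5. The authors deposited raw counts per gene symbol from HTSeq 2.7.14; the annotation and the strand setting are not given in the sources used here. Since only transcript ends were read, genes whose ends are shared with other genes lose reads or cannot be told apart from them.

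The deposited counts were scaled by TMM and fitted with edgeR 4.0.16 (R 4.3.3, limma 3.58.1) in 1 model of 6 groups after filterByExpr (minimum count 5) left 16067 of the 23762 symbols (common dispersion 0.0882, prior count 0.125 for fold changes). Genes were called by the quasi-likelihood test at a Benjamini-Hochberg adjusted p of 0.05. Totals per library limit the precision of low genes, and a count of 0 was read against a floor of 3 counts over the group. Alternatives were no filter, DESeq2 1.42.0, edgeR with DESeq2's size factors, a filter of 10 counts in 4 libraries, only the groups compared, a replicate block, a prior count of 2 and leaving out each library, which for the lists was chosen after seeing the data. The fits were tested on simulated data.

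The members and lists were chosen with earlier results of these data known. Genes were named if they were markers; list anchors or the up to 4 called members of a list with the smallest adjusted p; the 12 largest changes per direction with 20 CPM or more and no overlap; the 10 largest CPM differences per direction; the up to 5 per direction with 0 counts in 1 group; or the 6 per direction with the smallest adjusted p in the difference between states. Other members of counts were named after their values were seen, and some genes that the rule names are not reported here. Promoters are RefSeq on GRCm38.p6, and gene positions are GENCODE on GRCm38.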

Additional observations from a re-analysis of the deposited data

Results flagged for a closer look

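In 26 of 332 groups of 4 libraries checked (7.83%), over the genes named, 1 library stood apart from the other 3, with a gap, as a share of the group's range, above Dixon's critical value for 4 libraries; chance gives about 1 in 20. EpiLC replicate 3 was that library in 9 of the 26. It was high for Anp32b (1981 CPM, against 961 to 1070 CPM in the other EpiLC libraries), Atf4 (1105 CPM), Klf4 (132 CPM), Mirg (153 CPM), Sparc (336 CPM) and Wdr43 (2692 CPM), and low for Aurka (47.6 CPM), Fth1 (162 CPM) and Tyk2 (10.5 CPM). EpiLC replicate 4 was high for Gstm1 (36.6 CPM) and Tfap2c (17.3 CPM) and low for Pet100 (7.85 CPM), and Fgfr4, at low levels, was highest there too (1.84 CPM). EpiLC replicate 2 was high for Cldn6 (101.7 CPM, against 13.9 to 26.3 CPM in the other EpiLC libraries). Zfp608 had replicate 2 high in both groups, at 68.9 CPM in EpiLC and 4.89 CPM in EpiLC+SA.

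Among the EpiLC+SA libraries, replicate 1 was high for L1td1 (213 CPM), Nodal (23.95 CPM) and mt-Nd2 (4919 CPM) and low for Kdm6b (12.6 CPM). Replicate 2 was high for Pim3 (400.4 CPM) and Esrp1 (24.03 CPM) and low for Mras (5.10 CPM), and replicate 3 was high for Ccnjl (2.53 CPM) and Wdr43 (1032 CPM), while replicate 4 was low for Spred3 (0.344 CPM).

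The SA effect differed between the transition and naive cells by the test of the difference itself (edgeR, adjusted over all genes tested) for 17 of the 23 genes looked at. As log2 differences, those lower in transition were Lefty1 (-4.64), Mirg (-4.21), Atf3 (-4.09), Zfhx3 (-3.67), B230354K17Rik (-3.10), Nodal (-2.80), Pcf11 (-2.68), Hs6st1 (-2.65) and Klf13 (-2.34). Those higher were Gm13580 (3.10), Mt1 (3.05), Pcolce (2.57), Car13 (2.43), Cox20 (2.25), Ass1 (1.99), Tfrc (1.83) and Dbt (1.14). Most of these genes were looked at because they had the smallest adjusted p in this same test. They were Mirg, Zfhx3, B230354K17Rik, Pcf11, Hs6st1, Klf13, Gm13580, Mt1, Pcolce, Car13, Cox20 and Ass1. Their calls were fixed by that choice, so 17 of 23 does not measure how often the SA effect differed.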

How the results depend on the processing

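Between EpiLC+SA and EpiLC, 1942 genes were higher and 2535 lower, against 2275 and 2865 with DESeq2, 1947 and 2569 with its size factors, 1652 and 2289 with no filter, 1960 and 2526 with the stricter filter and 1418 and 1914 with only the groups compared. Leaving out single libraries gave 1394 to 1822 higher and 1938 to 2483 lower, and at 2-fold or more 910 to 1232 higher and 1431 to 1822 lower. For the difference between states, 847 were higher and 1457 lower, with 1106 and 1982 under DESeq2, 592 and 1173 with no filter, and 540 to 885 higher and 1063 to 1516 lower without single libraries; 540 came without EpiLC+SA replicate 4 and 552 without 2iL replicate 2. The cause was not tested.

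Of 222 changes named, 182 were called. None reversed under any alternative. Calls were lost for 28 without 1 library or another, 11 with only the groups compared, 11 with no filter, 1 with size factors and 1 with DESeq2, and none with the stricter filter or a prior count of 2. Of the 17 called differences none was lost. Most of these were chosen for the smallest adjusted p in that test, which favours keeping the call. DESeq2 moved 10 of 108 list counts by over 1.5 times, from 5 to 10 higher for proteasome subunits and by 1 or 2 genes in the other lists.

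The replicate number as a block gave 1957 higher and 2465 lower, and 931 and 1385 for the difference; the call of Mcm4 was lost (adjusted p = 0.0533), and Fth1 (0.78, adjusted p = 0.0214), Prdm1 (-1.004, adjusted p = 0.0189) and Sox2 (-0.72, adjusted p = 0.0471) were called. Same-numbered libraries deviated together only weakly (r = 0.060, 0.154, 0.162 and 0.119), so the numbers were not taken as pairs, although each library correlated best with its own number, a hint from the data and not the design. Genes of a few CPM are limited by depth, and genes not called at it are not shown to be unchanged.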

Other observations

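Other signalling lists held calls in both directions. Of 19 tested BMP and ID genes 4 were higher and 4 lower, with the homeobox gene Msx1 at -2.78; 1 was higher without EpiLC replicate 4 or EpiLC+SA replicate 3 and 2 without EpiLC replicate 1, EpiLC+SA replicate 1 or EpiLC+SA replicate 4. Of 17 ERK feedback and immediate early genes 1 was higher and 7 were lower, with Spred3, an inhibitor of the ERK pathway, at -3.71. Of 13 FGF ligands and receptors 2 were higher, Fgfbp3 (3.56) and the receptor gene Fgfr4 (2.31), and 4 were lower. Of 17 Notch genes 2 were higher and 4 lower, with the co-activator Maml1 at -3.72.

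Among chromatin lists, JmjC histone demethylases had 3 of 21 higher and 3 lower, with Hr at 2.85, Kdm2a at -1.40 and Kdm6b at -1.33. DNA methylation and TET genes had 3 of 13 higher and 4 lower, with the dioxygenase gene Tet3 at -1.59. Germline genes had 2 of 20 higher and 2 lower, with Dazl at 1.60 and Tex19.1 at -1.98. Of 33 adhesion, keratin and matrix genes 5 were higher and 3 lower, with the splicing regulator Esrp1 at -2.09 and the tight junction gene Cldn6 at -2.04. Mitochondrial ribosomal proteins had 8 of 80 higher and 9 lower, proteasome subunits 5 of 38 higher and 4 lower, p53 targets 3 of 20 in each direction, and of 12 reference genes 2 were higher. Without 1 library or another, 4 to 10 mitochondrial ribosomal proteins were higher (4 without EpiLC replicate 3 or EpiLC+SA replicate 2) and 4 to 9 lower (4 without EpiLC+SA replicate 3). Proteasome subunits had 2 higher without EpiLC replicate 3 or EpiLC+SA replicate 4, and 8 without EpiLC replicate 1. Of the other lists here, the higher count of adhesion genes fell to 3 without EpiLC replicate 2, EpiLC replicate 3 or EpiLC+SA replicate 4, that of JmjC genes to 1 without EpiLC replicate 3, and that of Notch genes to 0 without EpiLC replicates 1 or 4 or EpiLC+SA replicates 2 or 3 and to 1 without EpiLC replicate 2 or EpiLC+SA replicate 4. These are values beside 12.1% higher and 15.8% lower over all genes tested, with no test of the lists.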
